A study of Microcebus murinus with 18 samples.

Results

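The nucleosome assembly proteins described here are 10 of the 19775 genes with a probe set of their own on the array, the NAP1-like genes NAP1L1, NAP1L2, NAP1L3, NAP1L4 and NAP1L5 and the related histone chaperones SET, ASF1A, NPM1, ANP32A and ANP32B. Their measurements were taken from all probe sets annotated to a member symbol, which gave 33 of the 54613 probe sets that are not controls on the HG-U133 Plus 2.0 array. Of these, 28 were annotated to 1 member gene alone and 5 to SET together with its retrocopy SETSIP. The family was chosen because 1 of its probe sets, of NAP1L1, stood among those the study had picked on the signals of these same animals, and it is called the picked NAP1L1 probe set here. The values of NAP1L1 are therefore given as a description with no test.

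Temporal cortex was collected from 18 grey mouse lemurs (Microcebus murinus), a small primate, in 3 groups with 1 array for each animal. The AD-like group held 2 old females, F1 and F2 (their values are given in that order), in which the study saw β-amyloid plaques and cortical atrophy. The old group held 10 animals without these signs (7 females and 3 males), and the young adult group held 6 animals (4 females and 2 males). No animal was described as treated or genetically altered, and the labels give the age as a category. Because the array carries human probes, a signal depends on how well probe and lemur transcript match, so each probe set was compared between animals and never with another probe set.

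Histone chaperones are acidic proteins that shield histones and hand them to or take them from DNA, so that nucleosomes are built and taken apart during replication, transcription and repair. NAP1-like proteins carry mainly H2A-H2B dimers. NAP1L1 and NAP1L4 are made in most tissues, whereas NAP1L2, NAP1L3 and NAP1L5 are enriched in brain and neurons. SET, ANP32A and ANP32B also belong to complexes that bind histone tails and limit their acetylation, ASF1A carries H3-H4 dimers, and NPM1 is an abundant chaperone of the nucleolus.

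The signals were linear values that the authors' software had scaled to a trimmed mean of 100 on each array. A probe set was kept where its signal reached 100 on at least 3 of the 18 arrays, which left 23571 probe sets and 18 of the 28 member probe sets. Each of the 10 genes had at least 1 kept probe set. The 10 member probe sets not kept had medians over the 18 arrays between 6.54 and 28.7, and they belonged to NAP1L1 (3), NAP1L4 (4), NAP1L5, ASF1A and ANP32A (1 each). Differences are of log2(signal + 16), fitted with limma over all kept probe sets. A call means an unadjusted p under 0.05, and adjusted p-values follow Benjamini-Hochberg over all 23571.

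The arrays fell into classes that cut across the groups and lay partly along them. On 6 arrays (AD-like F2, old M1 and M2, young adult F4, M1 and M2) the mean signal was 151.4 to 174.7, against 193.1 to 236.4 on the other 12, and 4 of the 5 males were among these 6. The 6 arrays held 1 of 2 AD-like, 2 of 10 old and 3 of 6 young adult animals. On 4 of the 6 the poly-A control probe sets, which report RNA added during preparation, were near background, with medians of 12.1 to 18.8 against 100.7 to 546.1 on the other 14 arrays. Of 10 neuronal markers 10 were kept, as were 6 of 6 markers of astrocytes, 3 of 5 of endothelium (VWF and CDH5 were not kept) and 1 of 8 of microglia. The summed signal of the neuronal markers was 76022 and 35980 in AD-like animals, 43560 to 93755 in old animals and 30240 to 87535 in young adult animals. By array it was 30240 to 51600 on the 6 arrays of low mean and 51557 to 93755 on the other 12. The lower sum on the 6 was not particular to neurons. The astrocyte markers summed to 4916 to 9070 (median 7159) on the 6 and 7723 to 19164 (median 12746) on the 12. The endothelial sum was not lower, with medians of 616.9 on the 6 and 527.3 on the 12. The classes were set by the mean signal at a fixed trimmed mean, on which bright probe sets weigh most. A lower sum of bright markers on the 6 therefore does not show a difference in cell content. Fewer cells of a type and less RNA per cell also cannot be told apart in such bulk tissue.

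NAP1L1, the broadly expressed founder of the family, had 7 probe sets, 4 of them kept. On the picked probe set the 2 AD-like animals had signals of 206.6 and 220.9, against 47.0 to 136.7 (median 96.6) in old animals and 55.05 to 136.2 (median 101.1) in young adult animals. The old and young adult signals lay near the floor of the filter, with 5 of 10 old and 4 of 6 young adult animals at 100 or more. Both AD-like values lay above every old and every young adult value, and the old and young adult ranges overlapped. Over all kept probe sets, in either direction, AD-like ranges clear of the old range made up 3.26% and those clear of the young adult range 5.79%. The signal averaged 213.7 ± 10.1 in AD-like (SD, n = 2), 91.3 ± 29.6 in old (SD, n = 10) and 99.5 ± 28.2 in young adult animals (SD, n = 6). On the log2 scale AD-like exceeded old animals by 1.15 (2.22-fold on the scale of signal + 16) and young adult animals by 1.03, and the old over young adult difference was -0.12. The study had picked the probe set on the signals of these same animals, by its own comparison of the 3 groups.

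By array class, each with 1 AD-like animal, the values of the picked probe set are given as a description, since the animals' order on it was known when the probe set was chosen. AD-like F2 exceeded the mean of the 2 old animals on arrays of low mean by a log2 of 1.35, and AD-like F1 exceeded the mean of the 8 other old animals by 1.07. Over the young adult animals of the same array class the differences were 1.33 for F2 and 0.73 for F1.

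The other 3 kept NAP1L1 probe sets did not show the separation. Probe set 208752_x_at gave 4079 and 3648 in AD-like animals, 2382 to 5293 (median 4172) in old and 1734 to 4956 (median 3032) in young adult animals. Probe set 212967_x_at gave 3085 and 1742 in AD-like, 1214 to 3844 (median 1813) in old and 1039 to 2794 (median 1853) in young adult animals. Probe set 213864_s_at gave 2309 and 1501 in AD-like, 1262 to 3430 (median 1629) in old and 828 to 2346 (median 1156) in young adult animals. In these 3 probe sets the AD-like signals lay inside the old range, and inside the young adult range except that of AD-like F1 on 212967_x_at, which was above it. Their log2 differences were -0.04, 0.23 and 0.11 for AD-like over old animals, and 0.42, 0.43 and 0.60 for AD-like over young adult animals. The first, of 208752_x_at, was 0.27 for AD-like over old animals after quantile normalization.

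The AD-like over old differences of 212967_x_at and 213864_s_at turned with the animal. They were -0.18 and -0.20 with AD-like F1 left out, and 0.64 and 0.42 with F2 left out. Within the array classes they were -0.96 and -1.01 on the 6 arrays of low mean, where AD-like F2 lies, and 0.83 and 0.62 on the other 12, where F1 lies.

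For old over young adult animals the same 3 probe sets gave 0.46, 0.20 and 0.49. Of these, the differences of 212967_x_at and 213864_s_at changed sign with the array class. On the 6 arrays of low mean, 212967_x_at and 213864_s_at differed by 1.36 and 1.70, with old M1 and M2 above the 3 young adult animals there. On the other 12 arrays they differed by -0.37 and -0.12. The 3 NAP1L1 probe sets that were not kept (1556121_at, 208753_s_at and 208754_s_at) reached at most 123.3, 51.1 and 70.0 on any array.

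**Figure D1:**
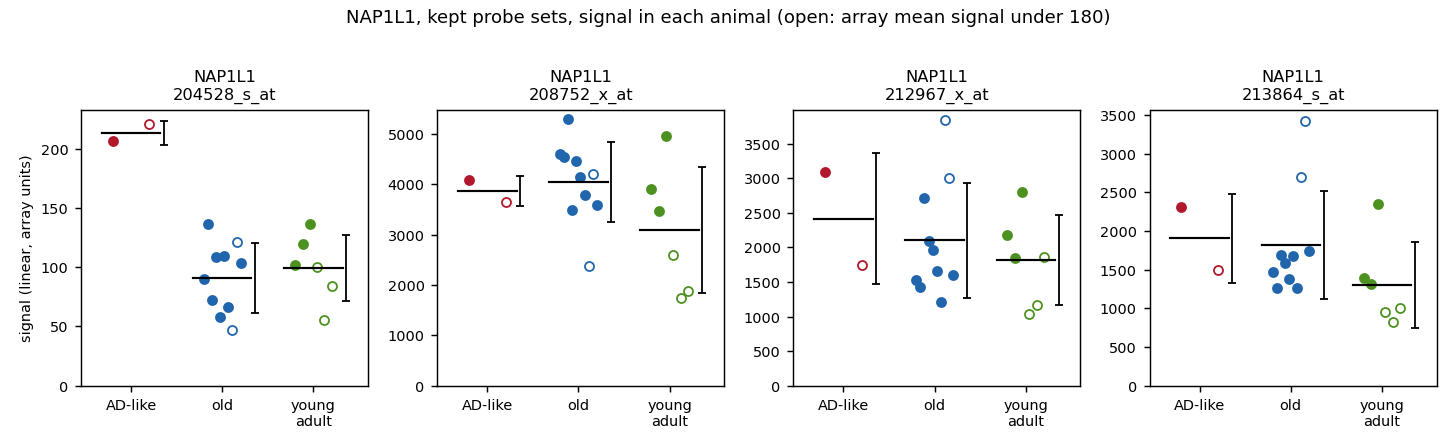
Signal (linear, array units) of the 4 kept NAP1L1 probe sets in each animal by group, with the group mean (line) and SD (bar), and open circles for arrays with a mean signal under 180. In the leftmost panel, the picked probe set, both AD-like animals (206.6 and 220.9) sit above the other 16 animals, and in the other 3 panels they sit within the old range.

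The kept NAP1L1 probe sets were also set against each other over the 18 animals on the log2 scale, as a description with no test. For the picked probe set Pearson's r was 0.38 with 208752_x_at, 0.10 with 212967_x_at and 0.24 with 213864_s_at, and Spearman's rho was 0.30, 0.15 and 0.30. These values depended on which animals entered. Without the 2 animals farthest from the median of the picked probe set r was 0.33, 0.47 and 0.57. On the 12 arrays of higher mean it was -0.13, 0.41 and 0.56, and on the 6 of low mean 0.73, -0.15 and 0.09. The pair 212967_x_at and 213864_s_at had r = 0.83 and rho = 0.77, with r = 0.77 without the 2 farthest animals, 0.74 on the 12 arrays and 0.90 on the 6.

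NAP1L2, an X-linked gene of neurons and their precursors, gave signals of 333.2 and 296.8 in AD-like animals on 219368_at, against 125.2 to 407 (median 163.9) in old and 121.9 to 289.9 (median 189.3) in young adult animals. Both AD-like values were above the young adult range and above both medians, while old F4 was higher than either. The difference was 0.72 ± 0.38 (SE) on the log2 scale for AD-like over old animals (limma p = 0.0731, adjusted p = 0.952) and 0.70 ± 0.40 for AD-like over young adult animals (p = 0.0995, adjusted 0.999). It was -0.03 ± 0.26 for old over young adult animals (p = 0.918). Without old F4 the AD-like over old difference was 0.84 with an unadjusted p of 0.0229. It was 0.77 on the 12 arrays of higher mean, where 1 AD-like animal remained, and 0.78 on the 6 of low mean.

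NAP1L3, a brain-enriched gene without introns, gave 62.7 and 238.6 in AD-like animals on 204749_at, 2.41 to 145.1 (median 65.6) in old and 3.31 to 106.1 (median 57.6) in young adult animals. The high value belonged to AD-like F2 alone, and AD-like F1 was below the old median. The log2 difference for AD-like over old animals was 1.00 ± 0.70 (p = 0.167), which became 1.85 with AD-like F1 left out and 0.16 with F2 left out. In females alone it was 1.45 with an unadjusted p of 0.0401, and with sex as a covariate 1.43 (p = 0.0216). The signal of this probe set had a median of 114.9 on the 6 arrays of low mean and 57.6 on the other 12.

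NAP1L4, the second broadly expressed NAP1-like gene, gave 181.1 and 149.4 in AD-like animals on 1560339_s_at, 7.30 to 183.8 (median 101.1) in old and 24.9 to 196.3 (median 89.7) in young adult animals. Both AD-like values were in the upper part of wide, overlapping ranges. It differed by a log2 of 1.12 ± 0.74 for AD-like over old animals (p = 0.141) and -0.16 ± 0.49 for old over young adult animals (p = 0.751). The first was 0.18 on the 6 arrays of low mean and 1.46 on the other 12, with 1 AD-like animal in each, and the second was 0.84 on the 6 and -0.54 on the 12. The 4 other NAP1L4 probe sets were not kept.

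NAP1L5, an imprinted gene expressed from the paternal copy, gave 211.7 and 281.6 in AD-like animals on 228063_s_at, 61.2 to 405.9 (median 206.1) in old and 91.3 to 252 (median 121.2) in young adult animals. The ranges overlapped, and 8 of 10 old animals were above the young adult median. Log2 differences were 0.29 ± 0.52 for AD-like over old (p = 0.585), 0.72 ± 0.55 for AD-like over young adult (p = 0.203) and 0.43 ± 0.35 for old over young adult animals (p = 0.227). In females alone the old over young adult difference was 0.82 (p = 0.0225), and on the 12 arrays of higher mean it was 0.89 (p = 0.0247), against -0.21 on the 6 of low mean.

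**Figure D2:**
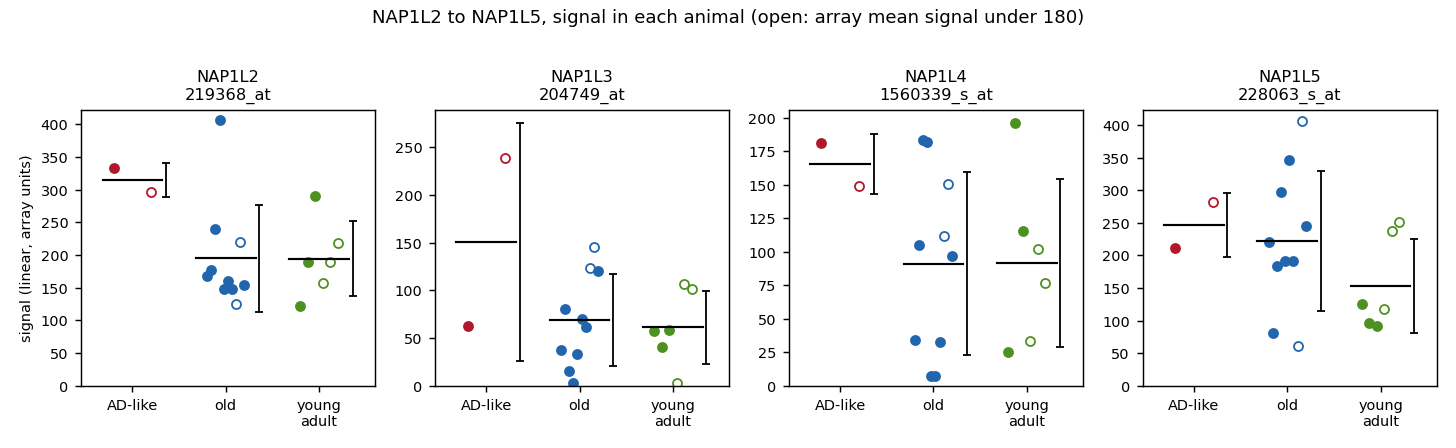
Signal (linear, array units) of the kept probe sets of NAP1L2, NAP1L3, NAP1L4 and NAP1L5 in each animal by group, with group mean (line) and SD (bar), and open circles for arrays with a mean signal under 180. The AD-like NAP1L2 values (333.2 and 296.8) are above the young adult range and below old F4, and the 2 AD-like NAP1L3 values (62.7 and 238.6) lie far apart.

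Over NAP1L2 to NAP1L5, the AD-like over old difference was positive in 4 of 4 kept probe sets, from 0.29 to 1.12, and 0 of 4 were called, with 5.06% of all kept probe sets called. For old over young adult animals the 4 differences ran from -0.16 to 0.43 and 0 of 4 were called, with 5.46% of all called. The summed neuronal marker signal was 76022 and 35980 in AD-like animals, with medians of 77011 in old and 57822 in young adult animals. This sum was lower on the arrays of low mean, a class set by the mean signal itself, with a median of 42162 against 79462 on the others. Arrays of low mean made up different shares of the groups, so group and array class were not told apart in these values. The part of this sum in the values of the neuron-enriched members was not tested.

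SET, a chaperone that also inhibits protein phosphatase 2A and histone acetylation, had 2 kept probe sets of its own. Probe set 210231_x_at gave 1428 and 269.1 in AD-like animals, 694.3 to 3586 (median 1770) in old and 683.9 to 4428 (median 1399) in young adult animals. AD-like F2 had the lowest value of all 18 animals and AD-like F1 was within both ranges. The log2 difference was -1.26 ± 0.63 for AD-like over old (95% interval -2.56 to 0.04, p = 0.0561, adjusted 0.952) and -1.29 ± 0.66 for AD-like over young adult animals (p = 0.0627, adjusted 0.999). Leaving out AD-like F1 made the first -2.43 (p = 0.00521), and leaving out F2 made it -0.09. In females alone it was -1.41 (p = 0.0219), and with sex as a covariate -1.40 (p = 0.0393). On the 12 arrays of higher mean, where AD-like F1 remained, it was -0.37 (p = 0.454).

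The second SET probe set, 213048_s_at, gave 3437 and 4907 in AD-like animals, 2614 to 8781 (median 4691) in old and 3538 to 8792 (median 5597) in young adult animals. The groups overlapped, with log2 differences of -0.15 ± 0.43 for AD-like over old (p = 0.729; 0.23 after quantile normalization) and -0.24 ± 0.29 for old over young adult animals (p = 0.408). The 2 SET probe sets followed each other over the 18 animals with r = 0.66 (permutation p = 0.00233, adjusted 0.014 over the 6 pairs of probe sets of 1 gene other than NAP1L1) and rho = 0.74 (adjusted p = 0.00444), and r was 0.83 without the 2 farthest animals.

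The 5 probe sets that SET shares with SETSIP were kept, and transcripts of the 2 genes cannot be told apart on them. Their log2 differences for AD-like over old animals ran from -1.26 to -0.15, negative in 5 of 5, with p from 0.0648 to 0.732. For old over young adult animals they ran from 0.05 to 0.64 and none was called. These 5 and the 2 probe sets of SET alone target the same gene, so they are not independent measurements.

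ASF1A, which passes H3-H4 to the HIRA and CAF-1 assembly pathways, gave 423.3 and 466 in AD-like animals on 203428_s_at, 285.1 to 946.9 (median 662.1) in old and 407.4 to 810.1 (median 605.3) in young adult animals. Both AD-like values were in the lower part of the old and young adult ranges. Its log2 difference came to -0.35 ± 0.44 for AD-like over old (p = 0.43) and -0.04 ± 0.29 for old over young adult animals (p = 0.9). The first turned with the array class. It was 0.39 on the 6 arrays of low mean and -0.59 on the other 12, with 1 AD-like animal in each. The second ASF1A probe set, 203427_at, reached at most 68.3 and was not kept.

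NPM1, nucleophosmin, which also serves ribosome assembly in the nucleolus, had 3 kept probe sets and the 1 member call. Probe set 221923_s_at gave 336.7 and 462.1 in AD-like animals, 278.2 to 1227 (median 569) in old and 231.7 to 399.6 (median 298.5) in young adult animals. Of 10 old animals 9 were above the young adult median, while the old and young adult ranges overlapped. The log2 difference for old over young adult animals was 0.77 ± 0.29 (95% interval 0.17 to 1.37, p = 0.0147), with an adjusted p of 0.898 over all probe sets. It was 0.68 in females alone (p = 0.0662), 0.64 on the 12 arrays of higher mean (p = 0.11) and 0.69 with the array class as a block (p = 0.029). For AD-like over old animals it was -0.41 ± 0.43 (p = 0.351).

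Probe set 200063_s_at of NPM1 gave 12404 and 9446 in AD-like animals, 5207 to 24431 (median 17182) in old and 5511 to 15665 (median 10893) in young adult animals. Of 10 old animals 8 were above the young adult median, and the groups overlapped. The log2 difference was 0.53 ± 0.33 for old over young adult animals (p = 0.123) and -0.46 ± 0.49 for AD-like over old animals (p = 0.365). In females alone the first was 0.55 (p = 0.0421) and the second -0.81 (p = 0.023). The second turned with the array class. It was 0.58 on the 6 arrays of low mean and -0.57 on the other 12, with 1 AD-like animal in each. Without old M1 the first was 0.70 (p = 0.0259).

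Probe set 221691_x_at of NPM1 gave 774.3 and 885.8 in AD-like animals, 114.7 to 887.7 (median 485.5) in old and 276.5 to 679.6 (median 436.4) in young adult animals. Both AD-like values were above the young adult range and within the old range. The log2 difference was 0.76 ± 0.50 for AD-like over old (p = 0.146) and 0.90 ± 0.53 for AD-like over young adult animals (p = 0.104). The 3 NPM1 probe sets thus differed in sign for AD-like over old animals. Over the 18 animals 200063_s_at followed 221923_s_at (r = 0.60, permutation p = 0.00795, adjusted 0.0238; rho = 0.60, adjusted p = 0.0304), and no relation with 221691_x_at was detectable (r = -0.18, p = 0.488, adjusted 0.683). Without the 2 farthest animals the first r was 0.47.

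ANP32A, an acidic leucine-rich protein that binds SET, had 2 kept probe sets. Probe set 201043_s_at gave 923.8 and 216.3 in AD-like animals, 385.4 to 817.1 (median 485.9) in old and 273.4 to 622.9 (median 466.4) in young adult animals. The 2 AD-like animals had the highest and the lowest value of the 18, on either side of the old and young adult ranges. The log2 difference for AD-like over old animals was -0.13 ± 0.42 (p = 0.762), which became -1.14 (p = 0.0281) with F1 left out and 0.88 (p = 0.0827) with F2 left out. Probe set 201051_at gave -0.23 ± 0.53 for AD-like over old (p = 0.67) and 0.17 ± 0.35 for old over young adult animals (p = 0.634).

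ANP32B, its paralog, had 2 kept probe sets. Probe set 201305_x_at gave 280.1 and 419.3 in AD-like animals, 36.1 to 420.5 (median 244.9) in old and 34.8 to 277.4 (median 187.4) in young adult animals. Both AD-like values were above the young adult range, the lower one by little. The log2 difference was 1.31 ± 0.67 for AD-like over young adult (95% interval -0.08 to 2.70, p = 0.0635, adjusted 0.999) and 0.68 ± 0.42 for old over young adult animals (p = 0.121). Without old F1 these were 1.31 (p = 0.0276) and 0.92 (p = 0.0174).

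Probe set 201306_s_at of ANP32B gave 4152 and 2517 in AD-like animals, 1127 to 5577 (median 4071) in old and 1394 to 4844 (median 2851) in young adult animals. The 3 groups overlapped. The log2 difference for old over young adult animals was 0.34 ± 0.41 (p = 0.416), and it was -0.07 on the 12 arrays of higher mean. Over the 18 animals no relation was detectable between the 2 ANP32B probe sets (r = -0.02, permutation p = 0.948) or the 2 of ANP32A (r = 0.13, p = 0.569).

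**Figure D3:**
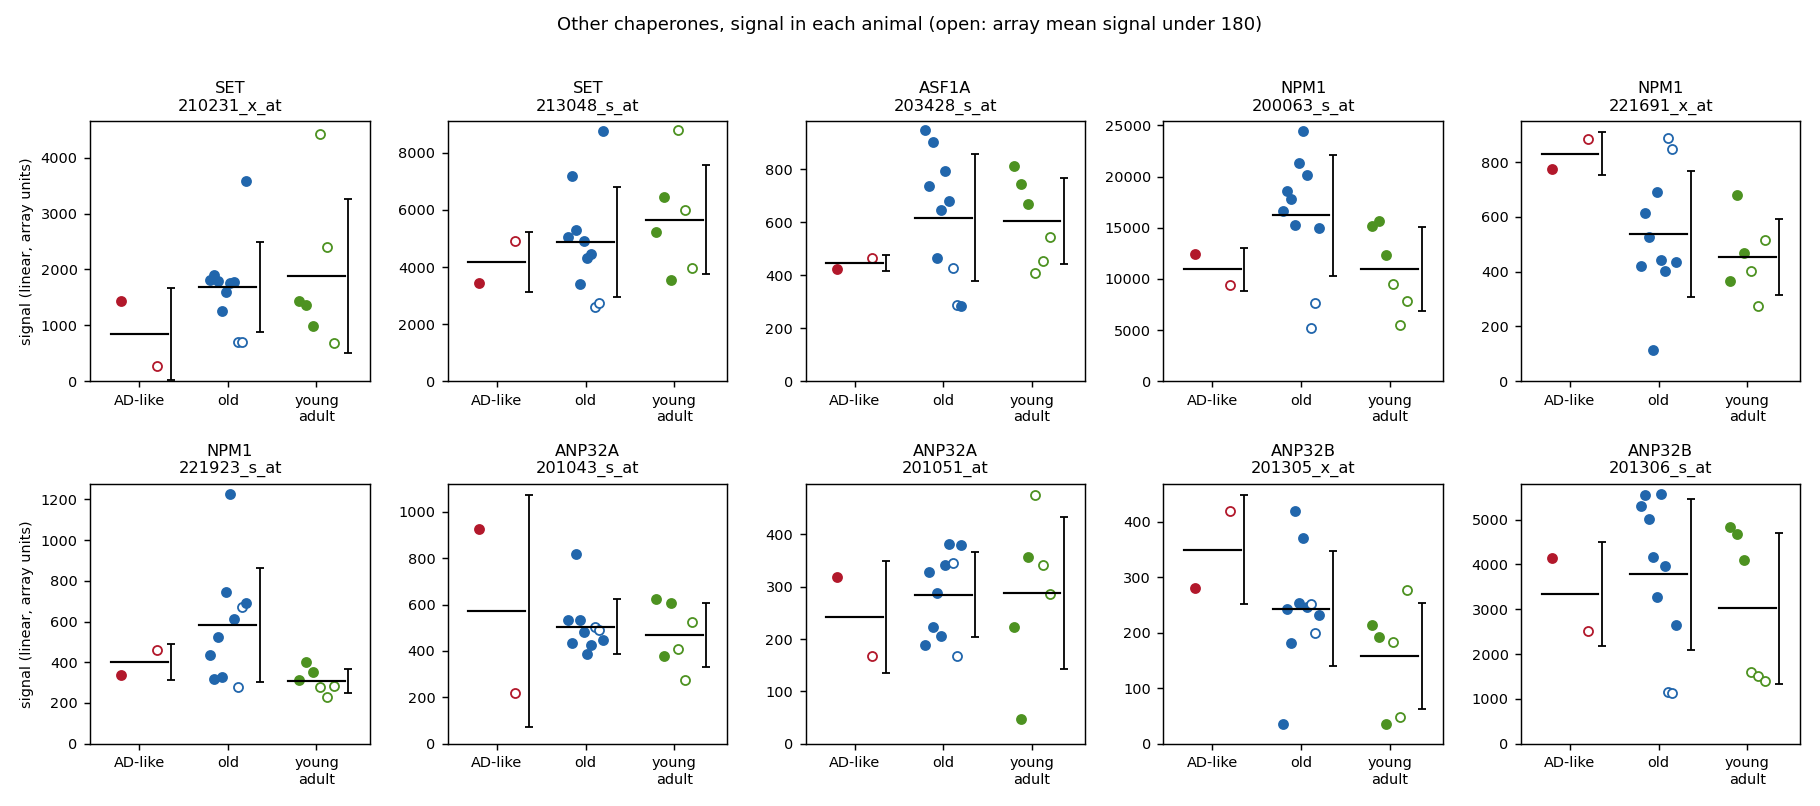
Signal (linear, array units) of the kept probe sets of SET, ASF1A, NPM1, ANP32A and ANP32B in each animal by group, with group mean (line) and SD (bar), and open circles for arrays with a mean signal under 180. In NPM1 221923_s_at most old animals are above the young adult median of 298.5, and in ANP32A 201043_s_at the 2 AD-like animals (923.8 and 216.3) bracket the other 16.

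On 2 member probe sets the signals separated by array class. NPM1 200063_s_at gave 5207 to 9496 on the 6 arrays of low mean and 12289 to 24431 on the other 12. ANP32B 201306_s_at gave 1127 to 2517 on the 6 and 2658 to 5577 on the 12. In both the classes did not overlap. That was so for 2 of the 18 kept member probe sets (11.1%) and for 1.51% of all kept probe sets in that direction. The classes were themselves set by the mean signal at a fixed trimmed mean, on which bright probe sets weigh most. Both probe sets are bright, with medians of 16128 (NPM1) and 4420 (ANP32B) on the 12 arrays, whereas all kept probe sets include dim ones. The shares are thus not a like comparison, and no trait of the members is read from them. Within the classes the old over young adult difference of NPM1 200063_s_at was -0.23 on the 6 arrays and 0.37 on the 12, and that of ANP32B 201306_s_at was -0.40 on the 6 and -0.07 on the 12.

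**Figure D4:**
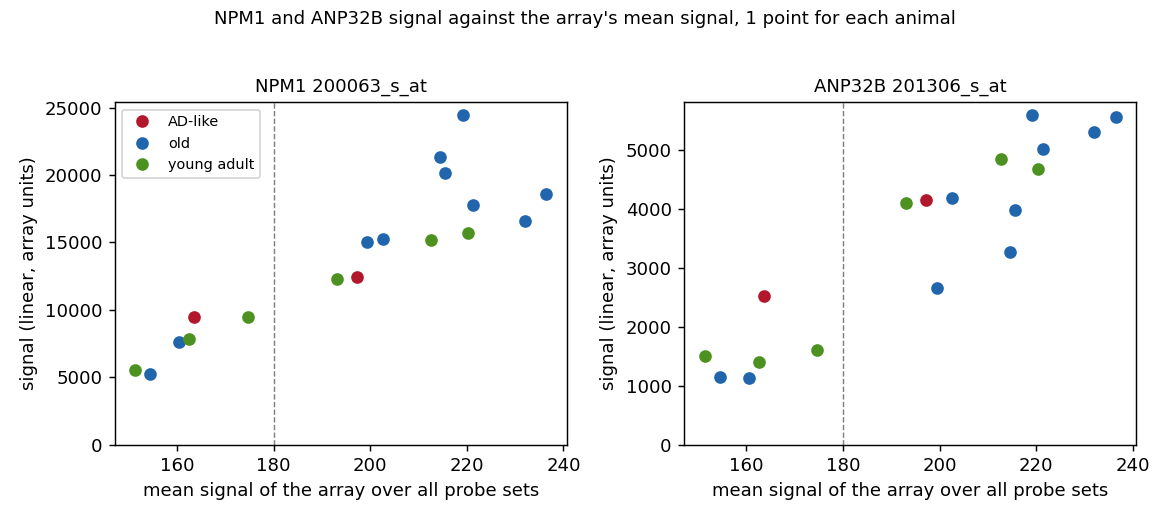
Signal (linear, array units) of NPM1 200063_s_at and ANP32B 201306_s_at against the mean signal of the array over all probe sets, 1 point for each animal, with a dashed line at 180. The 6 animals left of the line are below the 12 to its right in both panels, whatever their group. Both probe sets are bright and themselves enter the mean on the horizontal axis.

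Counted over the 14 kept probe sets of the 9 genes other than NAP1L1, old against young adult animals gave 1 call, NPM1 221923_s_at, which was higher. That is 7.14% of the members tested, against 5.46% of all kept probe sets (1288 of 23571), so the share is near the background. On the 12 arrays of higher mean there was also 1 call, NAP1L5 228063_s_at and not NPM1, against 3.43% of all. On the 14 arrays with poly-A signal there were 2, both of NPM1, against 6.26% of all. AD-like against old animals gave 0 member calls, against 5.06% of all, and AD-like against young adult animals gave 0, against 4.51% of all. Both AD-like animals are female, and these counts depended on how sex was treated. In the old group the 2 arrays of low mean were both of males. In females alone AD-like F2 thus had no old animal of its array class beside it, and sex and array class were not told apart. With sex as a covariate AD-like against old animals gave 3 calls, against 9.97% of all, and in females alone 3, against 10.8% of all. In both these were NAP1L3, higher, and SET 210231_x_at and NPM1 200063_s_at, lower. AD-like against young adult animals gave 2 with sex as a covariate (NAP1L3 and SET 210231_x_at) and 3 in females alone (also NAP1L5), each against 7.79% of all. Between the array classes the sign differed in 7 of the 14 members for AD-like over old, in 7 for AD-like over young adult and in 9 for old over young adult animals. The share over all kept probe sets was not computed, and each class held 1 AD-like animal. No trait of the members is therefore read from these sign counts. In the fit without sex, after adjustment, 0 members and 0% of all kept probe sets were called in each of the 3 comparisons.

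The members' median log2 difference was -0.08 for AD-like over old animals, where that of all kept probe sets was 0.04. It was 0.33 for AD-like over young adult animals, with 0.04 for all, and 0.14 for old over young adult animals, with -0.01 for all. Of the 14, 6 were higher and 8 lower for AD-like over old, 9 and 5 for AD-like over young adult, and 9 and 5 for old over young adult animals. The comparisons share their animals, so these counts are not independent.

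Ranges that did not overlap were found in 3 of 14 members (21.4%) for AD-like over young adult animals (NAP1L2 219368_at, NPM1 221691_x_at and ANP32B 201305_x_at), against 5.79% of all kept probe sets in either direction. None of the 3 was called (limma p = 0.0995, 0.104 and 0.0635). The other kept probe sets of NPM1 and ANP32B overlapped in this comparison, and the members were chosen with earlier results of these data known. For AD-like against old animals there were 0 of 14, against 3.26% of all, and for old against young adult animals 0 of 14, against 0.0255% of all.

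**Figure D5:**
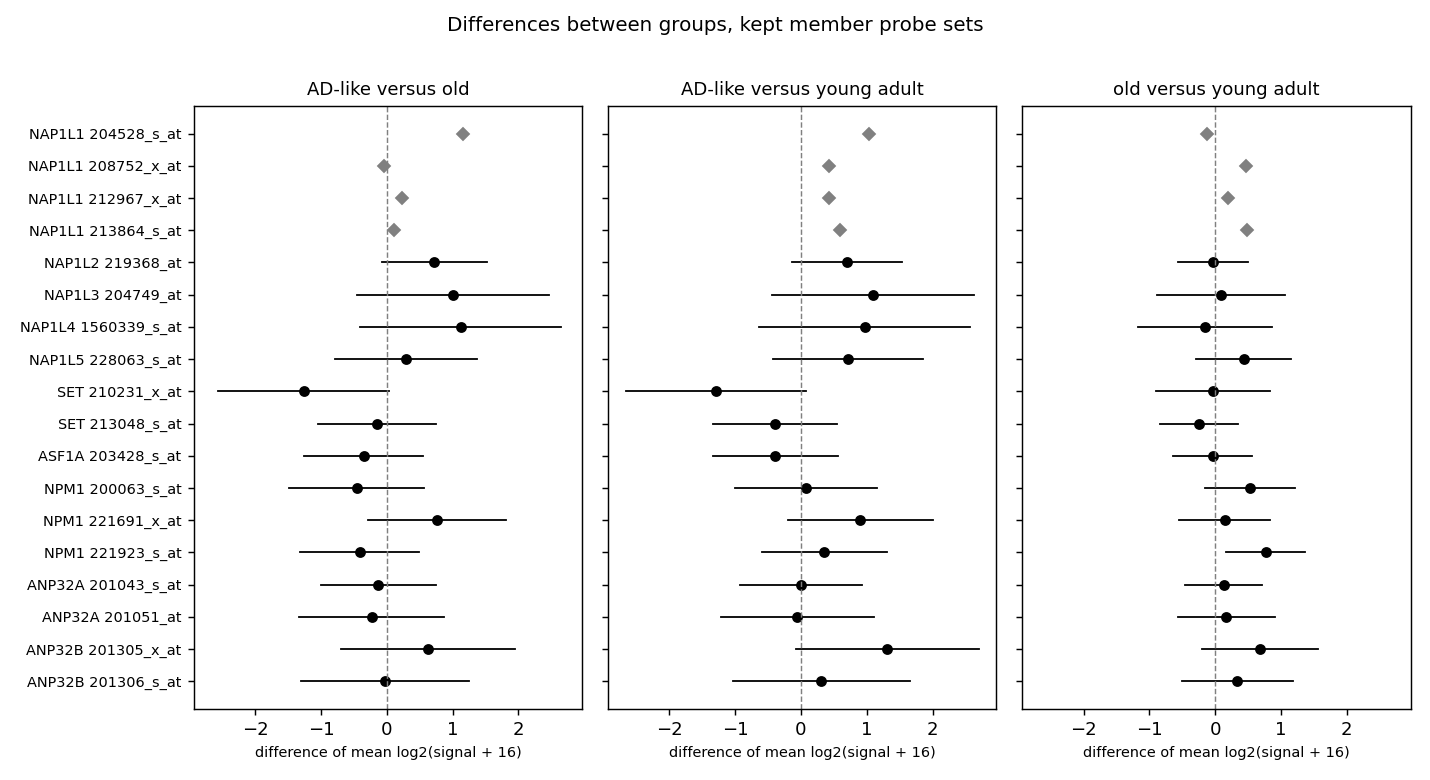
Log2 difference (signal + 16) of each kept member probe set in the 3 comparisons, AD-like over old, AD-like over young adult and old over young adult, with 95% intervals from limma for the 14 tested probe sets and grey diamonds without interval for NAP1L1. The interval of NPM1 221923_s_at for old over young adult animals (0.17 to 1.37) is the one that leaves out 0.

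In the interaction of sex and age group, 0 of the 14 members had an unadjusted p under 0.05 (the smallest was 0.119), against 1134 of the 23571 kept probe sets, and 0 passed adjustment. Old against young adult differences in females and males were thus not shown to differ for any member. The AD-like group held no male, so the AD-like comparisons with all 10 old or all 6 young adult animals also set females against both sexes.

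Of 40 other histone chaperones, each taken at its brightest kept probe set, 30 were measured. Old against young adult animals gave 1 higher and 0 lower (3.33%), RSF1, a subunit of a chromatin spacing complex, with 0.47 ± 0.21 (p = 0.0345). RSF1 had been picked by the study on these animals, so it is not independent evidence of a direction. AD-like against old animals gave 0 higher and 2 lower (6.67%), NOLC1, a nucleolar protein, with -0.99 ± 0.41 (p = 0.0233) and MCM2, a helicase subunit that binds H3-H4, with -1.30 ± 0.61 (p = 0.0441). AD-like against young adult animals gave 0 of 30. None passed adjustment, and these shares are near the backgrounds of 5.46%, 5.06% and 4.51%.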

How the data were processed

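Arrays were made from total RNA of the temporal cortex of 18 animals, 1 array each, by the standard labelling of the array's maker. The authors processed them with GCOS 1.2 (named in the labels and methods), and the deposited intensity values hold 1 linear signal for each probe set, with every array brought to a trimmed mean of 100. No column of the table lacked a sample (0 such columns), and detection calls were not used.

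Signals were transformed to log2(signal + 16). Probe sets at 100 or more on at least 3 arrays were kept. The 3 groups were fitted with limma 3.58.1 in R 4.3.3, without covariates, on all 18 arrays, so that the 2 AD-like animals share the spread of the others. Correlations (100000 permutations), outlying animals and figures used Python 3.11.15, numpy 2.4.6, scipy 1.17.1 and matplotlib 3.10.9. The fit was tested on simulated data. SAM, which the study used, was not run. The methods' t-test on linear signals was run as an alternative. No depth exists for arrays, and their number limits the precision.

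Named are all probe sets annotated to 1 member, up to 4 genes with the smallest unadjusted p under 0.05 from each list of other chaperones and histones, and the 3 genes most correlated with the NAP1L1 probe set picked by the study, 204528_s_at. Members and lists were chosen with earlier results of these data known. Cell types are judged by marker lists, of which that of oligodendrocytes is not reported here. Gene names come from the platform annotation, in which 41097 probe sets have 1 symbol, and 10 of 10 members match a lemur gene symbol. Label numbers were not taken to pair animals, though the labels do not settle this. Alternatives covered offset, scaling, filter, variance model, sex, label number, poly-A controls, the t-test and each animal in turn. Those on the array mean under 180 were chosen after seeing the data.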

Additional observations from a re-analysis of the deposited data

Results flagged for a closer look

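In 5 of 36 pairs of a kept member probe set and a group (old or young adult), 1 animal stood apart from its group by Dixon's criterion, which chance meets in about 1 of 20 groups. NAP1L1 208752_x_at was 2382 in old M1, with the other old animals at 3487 to 5293. NPM1 221691_x_at was 114.7 in old F4, with the others at 403.8 to 887.7. ANP32A 201043_s_at was 817.1 in old F3, with the others at 385.4 to 533.2. ANP32B 201305_x_at was 36.06 in old F1, with the others at 182.4 to 420.5. ANP32A 201051_at was 46.44 in young adult F2, with the other young adult animals at 222.5 to 475.2.

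Without old F4, NPM1 221691_x_at had an unadjusted p of 0.0359 for AD-like over young adult animals (log2 difference 0.90), and without old F1, ANP32B 201305_x_at had 0.0276 (1.31). These animals belong to neither group of that comparison, and they enter it through the shared spread.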

How the results depend on the processing

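The number of members called for old against young adult animals, 1, was 2 with sex as a covariate (6.69% of all probe sets called) and in females alone (4.71%). It was also 2 with the poly-A controls as a block (7.34%) and on the arrays with poly-A signal (6.26%). It was 0 with the label number as a replicate block (6.58%), where NPM1 221923_s_at was 0.40 (p = 0.165). For AD-like against old animals, 0, it was 1 with an offset of 50 (5.05% of all), median centring (5.28%) or a variance trend with robust fitting (4.77%). It was 3 with sex as a covariate (9.97%) and in females alone (10.8%). For AD-like against young adult animals, 0, it was 2 with an offset of 50 (4.40% of all), quantile normalization (5.61%) or the variance trend (4.19%). It was also 2 with sex as a covariate (7.79%) or the methods' t-test (3.89%), and 3 in females alone (7.79%). Leaving out each old or young adult animal gave 1 to 2, 0 to 1 and 0 to 2 calls, against 3.80% to 7.73%, 4.48% to 6.06% and 4.14% to 5.66% of all. SET 210231_x_at was called for AD-like over old animals without AD-like F1, old M1 or M2, or young adult F4 or M2 (p = 0.00521 to 0.0485), and ANP32B 201305_x_at for AD-like over young adult animals without old F1 or young adult F1 or M2 (p = 0.0276 to 0.049). No member passed adjustment under any alternative. The methods' t-test called 1, 0 and 2 members, with 5.80%, 5.89% and 3.89% of all probe sets. The difference of the picked NAP1L1 probe set for AD-like over old animals was 1.07 to 1.21 leaving out each animal and 0.89 (replicate block) to 1.29 (offset 1) otherwise. With the filter at 150 it was not kept, since its signal exceeded 150 in the 2 AD-like animals alone. The replicate block changed no other member count. The label numbers were not taken to pair animals, since the correlation of deviations was 0.03 to 0.40 over 6 old and young adult pairs and over 0.1 in 4. Over all kept probe sets the calls for AD-like against old animals were 1193, and 2351 with sex as a covariate, 2556 in females alone and 3258 with the replicate block. For AD-like against young adult animals they were 1064, and 1836, 1837 and 2625. For old against young adult animals they were 1288, and 809 on the 12 arrays of higher mean. Without a filter they were 2926, 3135 and 2690 (old against young adult, AD-like against old, AD-like against young adult), at like shares of more probe sets, and with a filter at 150 they were 861, 705 and 632. The cause of these changes was not tested. Over the tested members' single differences, 1195 kept direction and side of the threshold, 42 passed it, 3 lost it, 101 uncalled ones changed sign and 0 called ones reversed. The 2 AD-like animals limit every AD-like comparison, and human probes limit how low a lemur signal can be read.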

Other observations

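Of 11 listed histone genes, mostly of replication-independent histones, 7 were measured. H3-3A, which encodes the replacement histone H3.3, had -1.33 ± 0.56 for AD-like over young adult animals (limma p = 0.0263, adjusted 0.999), the 1 call among the 7 (14.3%, with 4.51% of all probe sets called), and -0.98 ± 0.53 for AD-like over old animals (p = 0.0772). No histone gene was called for old against young adult animals.

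The 3 probe sets of single non-member genes whose log2 signal followed the picked NAP1L1 probe set most closely, of 19362 searched over the 18 animals, are given as a description. They were DLG3 212728_at (r = 0.72, rho = 0.62), a scaffold of synapses, MAP6 228448_at (r = 0.70, rho = 0.72), a protein that stabilises microtubules, and HIPK1 212293_at (r = 0.69, rho = 0.67), a nuclear kinase. DLG3 gave 271 and 320.3 in AD-like animals, 12.1 to 167.1 (median 59.9) in old and 20.3 to 203.3 (median 49.2) in young adult animals, so both AD-like values were above the other 16. HIPK1 gave 2692 and 2923 in AD-like, 1789 to 3087 (median 2252) in old and 1987 to 2925 (median 2492) in young adult animals, and its groups overlapped. The 2 AD-like animals weigh on each of these correlations because they lie at the end of the NAP1L1 range.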
